A study of Mus musculus with 4 samples.

Results

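Cytochrome P450 genes encode haem enzymes that insert an oxygen atom into drugs, plant chemicals, fatty acids, sterols and retinoids. Here they were taken as every gene whose symbol is Cyp followed by a family number, a subfamily letter and a gene number, with named pseudogenes left out. Symbols that end in a further letter (Cyp3a41a, Cyp3a41b, Cyp4a12a, Cyp4a12b and Cyp4a30b) fall outside this rule and are not counted in the subfamilies. That rule found 94 genes among the 55203 in the files, in 38 subfamilies, and all 94 are protein coding in GENCODE vM39. A mean of at least 1 FPKM over the libraries was reached by 31 of them and missed by 63. FPKM, fragments per kilobase of transcript scaled to all mapped fragments, is a level corrected for transcript length, and the gene level is the sum over a gene's transcripts.

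The RNA came from the intestine of wild-type C57BL/6NTac mice, adult males aged 8 to 12 weeks and kept specific-pathogen-free (SPF). The labels of 2 libraries give 4 mM RVC, ribonucleoside vanadyl complex, which inhibits RNA-degrading enzymes, and those of the other 2 libraries give fresh frozen. The stated purpose was a bulk measurement to set beside MERFISH imaging of the same kind of tissue. The labels name ileum while the protocol text names distal colon, and the protocol text with the RVC rinse stands beside all 4 libraries.

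Libraries are given in the order RVC 1, RVC 2, fresh frozen 1, fresh frozen 2 throughout. The absolute number of fragments is unknown; relative to the deepest library, fresh frozen 2, the depths were 81.8, 79.8, 72.6 and 100%. Genes at 1 FPKM or more numbered 14247 to 14573 per library. Of 12 colon marker genes 11 reached a mean of 1 FPKM, Car1 at 1655 ± 90.2 and Hoxb13 at 122 ± 16.0 (SD, n = 4), against 5 of 14 ileum markers, of which 6 were listed at 0 everywhere. The tissue thus carried the markers of colon and few of those of ileum. Of 10 hepatocyte markers 3 (Fga, Fgb and Mup3) were listed at 0 in all 4 libraries and Alb had a mean of 0.283 FPKM, while 3 reached a mean of 1 FPKM (Tat at 18.6, Ttr at 11.9 and Cps1 at 1.34). The list summed to 29.5, 36.6, 34.8 and 31.3 FPKM. Nothing states that the 2 libraries of a group came from separate mice, so tests measure only the spread between libraries, and batch numbers differ for every library, which means that a batch effect and a group effect cannot be told apart.

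P450 enzymes sit in the endoplasmic reticulum or in mitochondria and receive electrons from a reductase. Families are numbered by sequence likeness, and in the mouse several subfamilies have multiplied into rows of neighbouring copies where humans often keep a single gene. In the gut wall they act on swallowed chemicals before these reach the liver, and on arachidonic acid, leukotrienes, bile acids and vitamins made or taken up there. The lowest-numbered families hold most of the enzymes for foreign chemicals and fatty acids, and the higher-numbered families act mainly on sterols, steroids, vitamins and bile acids.

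The 31 genes at 1 FPKM or more fell into 13 subfamilies. By summed level these were Cyp2c with 7 of its 15 genes at 1 FPKM or more, Cyp2d with 8 of 9, Cyp4f with 6 of 9, and Cyp3a with 1 of 7. Cyp2j had 1 of 8, and Cyp2s, Cyp27a, Cyp2f, Cyp20a, Cyp39a, Cyp4v, Cyp2u and Cyp4b each had their single gene. The other 25 subfamilies had no gene at that mean. Summed over all 94 genes, P450 FPKM was 1249, 1276, 1026 and 1060 in the 4 libraries, a mean of 1153 ± 128 (SD, n = 4) and between 0.121 and 0.133% of all FPKM in a library. Both RVC sums were above both fresh-frozen sums.

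Levels within the family were very uneven. Cyp2c55 alone held 36.1, 40.5, 32.6 and 45.4% of the summed P450 FPKM in the 4 libraries. The 4 most abundant genes held 64.1 ± 3.51%, the first 9 held 86.8 ± 1.07% and the first 12 held 91.9 ± 1.04% (SD, n = 4). A mean of 10 FPKM was reached by 14 genes, 50 FPKM by 8 and 100 FPKM by 2. In the order of mean levels, the ranges over the 4 libraries of neighbouring genes overlapped in all but 1 of 30 pairs, the exception being Cyp2c55 over Cyp2d34. By ranges pooled over the libraries, only that first place is set apart. Within each library some lower places also held. In all 4, Cyp2d34 was above Cyp3a13, Cyp4f16 above Cyp2d9, Cyp2d9 above Cyp2s1, Cyp2s1 above Cyp4f13, and Cyp4f13 above Cyp27a1. Cyp2f2 was likewise above Cyp2j6, and Cyp2j6 above Cyp2c69.

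**Figure D1:**
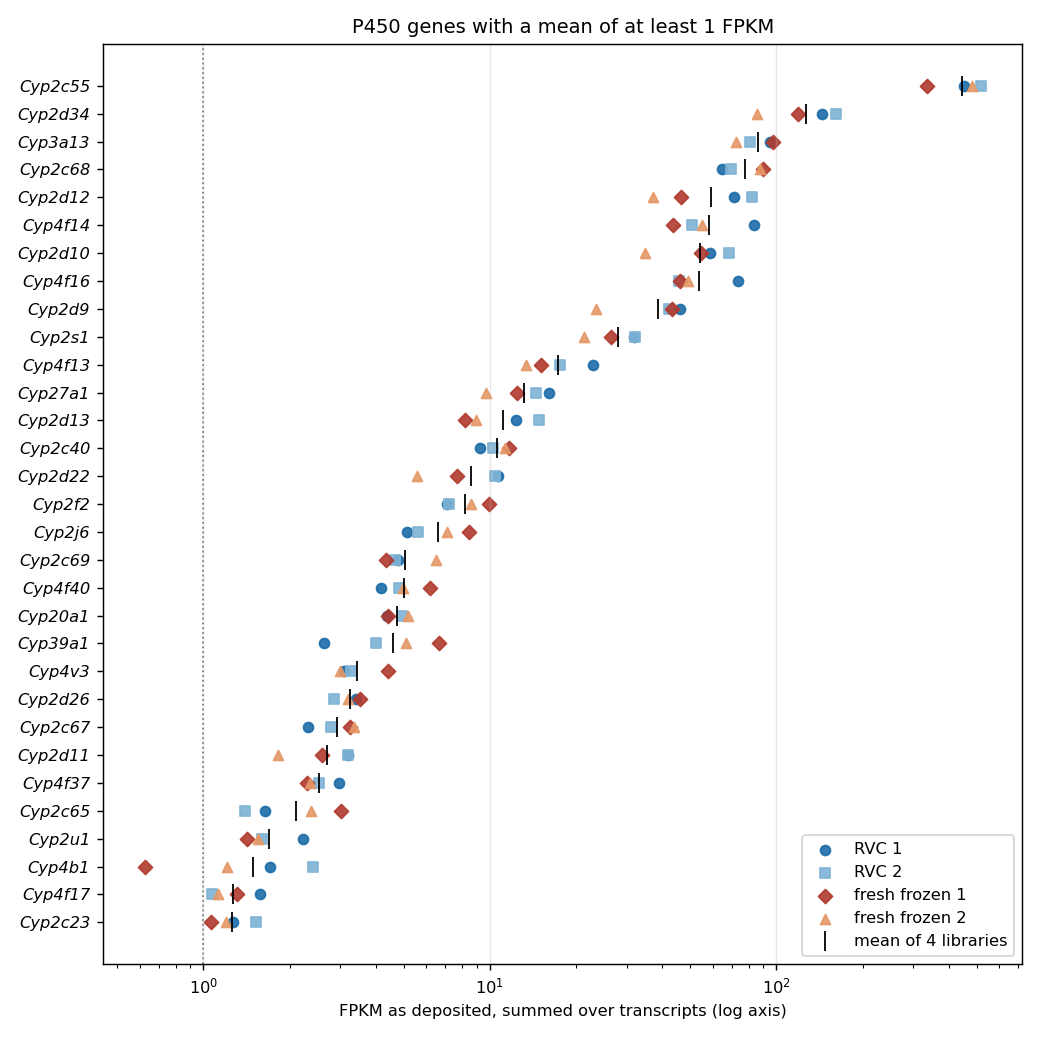
Level of each of the 31 P450 genes with a mean of at least 1 FPKM, in FPKM as deposited on a log axis, with 1 symbol per library and a black tick at the mean of 4 libraries; the dotted line marks 1 FPKM. Cyp2c55 stands apart from all others at 335 to 517 FPKM, and Cyp4b1 is the gene with a library below 1 FPKM (0.624 in fresh frozen 1).

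The sequences upstream of the leading genes are shown because the abundant genes sit in rows of neighbouring copies whose levels are described row by row further on. Each is the window of 200 bases that ends just before the start of the gene's most abundant transcript, read 5′ to 3′ on the strand of the gene from the GRCm39 genome. Capitals mark matches, on either strand, to 3 short motifs: TATAAA (the TATA box), CAAAGTCCA (a form of the HNF4 element) and TNGCGTG (the core bound by the aryl hydrocarbon receptor with its partner). No 2 of these motifs overlapped in the windows shown. The windows are as follows.
Cyp2c55 (chr19:38995263-38995462, plus strand): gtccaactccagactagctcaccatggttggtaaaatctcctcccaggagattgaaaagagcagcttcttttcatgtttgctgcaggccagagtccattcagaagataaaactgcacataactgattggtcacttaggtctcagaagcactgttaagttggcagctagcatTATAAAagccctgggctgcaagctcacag
Cyp2c68 (chr19:39729499-39729698, minus strand): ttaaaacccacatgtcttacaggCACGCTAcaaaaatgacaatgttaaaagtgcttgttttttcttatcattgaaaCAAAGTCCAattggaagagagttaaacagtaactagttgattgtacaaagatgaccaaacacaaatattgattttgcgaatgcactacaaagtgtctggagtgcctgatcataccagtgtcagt
Cyp2c40 (chr19:39801259-39801458, minus strand): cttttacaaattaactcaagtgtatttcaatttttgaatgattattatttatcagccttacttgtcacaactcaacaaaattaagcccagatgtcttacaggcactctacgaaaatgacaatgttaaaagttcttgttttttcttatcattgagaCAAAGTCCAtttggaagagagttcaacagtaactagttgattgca
Cyp2d34 (chr15:82505147-82505346, minus strand): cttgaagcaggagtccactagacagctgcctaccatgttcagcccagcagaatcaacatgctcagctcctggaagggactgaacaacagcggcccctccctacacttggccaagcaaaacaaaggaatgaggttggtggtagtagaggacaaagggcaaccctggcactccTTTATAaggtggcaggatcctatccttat
Cyp2d12 (chr15:82439090-82439289, plus strand): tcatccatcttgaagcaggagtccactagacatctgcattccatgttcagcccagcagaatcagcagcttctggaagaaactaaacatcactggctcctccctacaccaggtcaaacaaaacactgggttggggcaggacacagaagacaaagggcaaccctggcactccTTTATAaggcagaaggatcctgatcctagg
Cyp2d10 (chr15:82291397-82291596, minus strand): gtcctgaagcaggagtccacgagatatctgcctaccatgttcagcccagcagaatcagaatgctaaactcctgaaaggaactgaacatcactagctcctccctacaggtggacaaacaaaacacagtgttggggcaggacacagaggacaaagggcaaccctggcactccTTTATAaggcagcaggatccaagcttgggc
Cyp2d13 (chr15:82526248-82526447, minus strand): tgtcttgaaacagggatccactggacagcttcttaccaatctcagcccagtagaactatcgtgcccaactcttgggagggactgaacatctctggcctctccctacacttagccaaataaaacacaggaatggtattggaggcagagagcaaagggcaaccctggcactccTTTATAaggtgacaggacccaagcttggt

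In 5 of the Cyp2d genes, Cyp2d34, Cyp2d12, Cyp2d10, Cyp2d13 and Cyp2d11, a match to the TATA box on the opposite strand (TTTATA) is part of an unbroken run of 31 bases that all 5 windows hold.
Shared Cyp2d run: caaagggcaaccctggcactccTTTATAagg
No other window among the 11494 of protein-coding genes at 1 FPKM or more held this run, nor did that of any P450 gene below 1 FPKM. The run was defined from these 5 windows, which were picked for TATAAA and a level of at least 1 FPKM. Below 1 FPKM the only Cyp2d gene is Cyp2d40, so a link between the run and the level was not tested. Whole windows were 81.0% identical between Cyp2d34 and Cyp2d10, 84.0% between Cyp2d12 and Cyp2d10, 86.0% between Cyp2c68 and Cyp2c67 and 98.5% between Cyp2c40 and Cyp2c69, by global alignment. Copies are not independent, so counts of motifs over such genes describe the clusters and not separate promoters. TATAAA was in 5.33% of the 11494 windows, in 8 of the 31 windows of P450 genes at 1 FPKM or more (25.8%) and in 15 of the 63 below 1 FPKM (23.8%). CAAAGTCCA was in 0.400% of the 11494 windows and in 5 of the 31 (16.1%), all of them Cyp2c genes (Cyp2c68, Cyp2c40, Cyp2c69, Cyp2c67 and Cyp2c65), and in 3 of the 63 (4.76%). TNGCGTG was in 5.29% of the 11494 windows, in that of Cyp2c68 alone among the 31 (3.23%) and in none of the 63. Cyp2c55, the most abundant gene, held only TATAAA of the 3, and Cyp3a13 held none of them. A match of letters is a description of the window and not a site. The 24 genes listed at 0 everywhere have no most abundant transcript, and their windows belong to the longest one. In some other genes the window belongs to a short form, such as that of 650 bases in Cyp4f17, and may lie away from the main start.

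The Cyp2c subfamily led the family. Its genes lie on chromosome 19 and include enzymes that turn arachidonic acid into epoxides and hydroxylated products. Those from Cyp2c55 to Cyp2c70 form a row (38995463 to 40175777, GRCm39), and Cyp2c23 lies apart from it (43993461 to 44017647). Summed over 15 genes its level was 534, 607, 448 and 593 FPKM, or 47.5 ± 6.04% (SD, n = 4) of the P450 sum. Cyp2c55 (ENSMUSG00000025002, chromosome 19, 38995463 to 39031137), an arachidonic acid hydroxylase at the edge of the row, measured 450.3, 517, 335 and 481 FPKM, a mean of 446 ± 78.8 (SD, n = 4). Fresh frozen 1 was the lowest library and the groups overlapped. In fresh frozen 1 the deposited confidence bounds, which cover estimation within a library, were 319.7 and 349 FPKM, and in RVC 2 they were 494 and 539 FPKM, so these libraries differed by more than that error. Cyp2c55 ranked 144th among all genes whose longest transcript has at least 300 bases.

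Cyp2c68 (ENSMUSG00000074882, chromosome 19, 39677278 to 39729498) was the next Cyp2c gene, at 64.4, 69.7, 89.8 and 87.6 FPKM. Both fresh-frozen libraries were above both RVC libraries. Its neighbour Cyp2c40, an enzyme of arachidonic acid known from mouse intestine, measured 9.26, 10.2, 11.7 and 11.3 FPKM, with the same order of groups. The remaining Cyp2c genes at 1 FPKM or more were Cyp2c69 (5.07 ± 0.954), Cyp2c67 (2.93 ± 0.472), Cyp2c65 (2.11 ± 0.738) and Cyp2c23 (1.26 ± 0.197 FPKM; SD, n = 4). Of the other 8 Cyp2c genes 4 were listed at 0 in every library (Cyp2c37, Cyp2c38, Cyp2c50 and Cyp2c54), and the highest of the rest, Cyp2c70, had a mean of 0.104 FPKM. Cyp2c29, a major Cyp2c gene of mouse liver, and Cyp2c39 were near 0, and their means here were 0.00651 and 0.00893 FPKM.

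The Cyp2d subfamily was the one in which nearly the whole row was on. It is the mouse counterpart of human CYP2D6, an enzyme that oxidises many heart and psychiatric drugs. Its 9 genes lie on chromosome 15 between 82254728 and 82678495, and 8 of them reached a mean of 1 FPKM. The exception, Cyp2d40, measured 1.05, 0.847, 0.684 and 0.538 FPKM. Summed levels were 351, 386, 286 and 201 FPKM, or 26.3 ± 5.02% (SD, n = 4) of the P450 sum. Both RVC sums were above both fresh-frozen sums, and fresh frozen 2 was the lowest library.

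Cyp2d34 (ENSMUSG00000094559, chromosome 15, 82500166 to 82505147) led the row with 145, 161, 119 and 85.3 FPKM. Cyp2d12 (ENSMUSG00000096852, 82439273 to 82444604) measured 71.2, 82.3, 46.5 and 37.0 FPKM, and Cyp2d10 (ENSMUSG00000094806, 82287047 to 82291396) 58.8, 68.2, 54.8 and 34.7 FPKM. In these 3 genes both RVC libraries were above both fresh-frozen libraries. Cyp2d9 (ENSMUSG00000068086), a testosterone hydroxylase known from male liver, measured 46.1, 42.2, 43.2 and 23.5 FPKM. Here only fresh frozen 2 stood apart, and the groups overlapped. Cyp2d13 measured 12.4, 14.8, 8.20 and 8.97 FPKM, Cyp2d22 measured 10.7, 10.4, 7.67 and 5.59, and Cyp2d11 measured 3.21, 3.20, 2.60 and 1.82. All 3 of these were again higher in both RVC libraries. Cyp2d26, at the end of the row, measured 3.25 ± 0.298 FPKM (SD, n = 4), and its groups overlapped.

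The Cyp4f subfamily, next by level, holds hydroxylases that inactivate leukotrienes and act on the side chains of fatty acids and vitamin E. Of its 9 genes 8 lie on chromosome 17 between 32671697 and 33166376, and Cyp4f18 lies on chromosome 8. The subfamily summed to 189, 123, 115 and 126 FPKM, so RVC 1 stood above the other 3 libraries, which lay close together. Cyp4f14 (ENSMUSG00000024292), a leukotriene hydroxylase, measured 83.4, 50.7, 43.6 and 54.9 FPKM. Cyp4f16 (ENSMUSG00000048440) measured 73.5, 45.8, 46.0 and 49.2 FPKM. In both genes RVC 1 alone was high. Cyp4f13 (ENSMUSG00000024055) measured 22.8, 17.6, 15.1 and 13.4 FPKM, higher in both RVC libraries. Cyp4f40 (5.04 ± 0.840), Cyp4f37 (2.54 ± 0.314) and Cyp4f17 (1.27 ± 0.226 FPKM; SD, n = 4) followed. Cyp4f17 measured 1.57, 1.07, 1.31 and 1.13 FPKM, just above the 1 FPKM level. Cyp4f39, Cyp4f18 and Cyp4f15 had means of 0.258, 0.216 and 0.0129 FPKM.

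**Figure D2:**
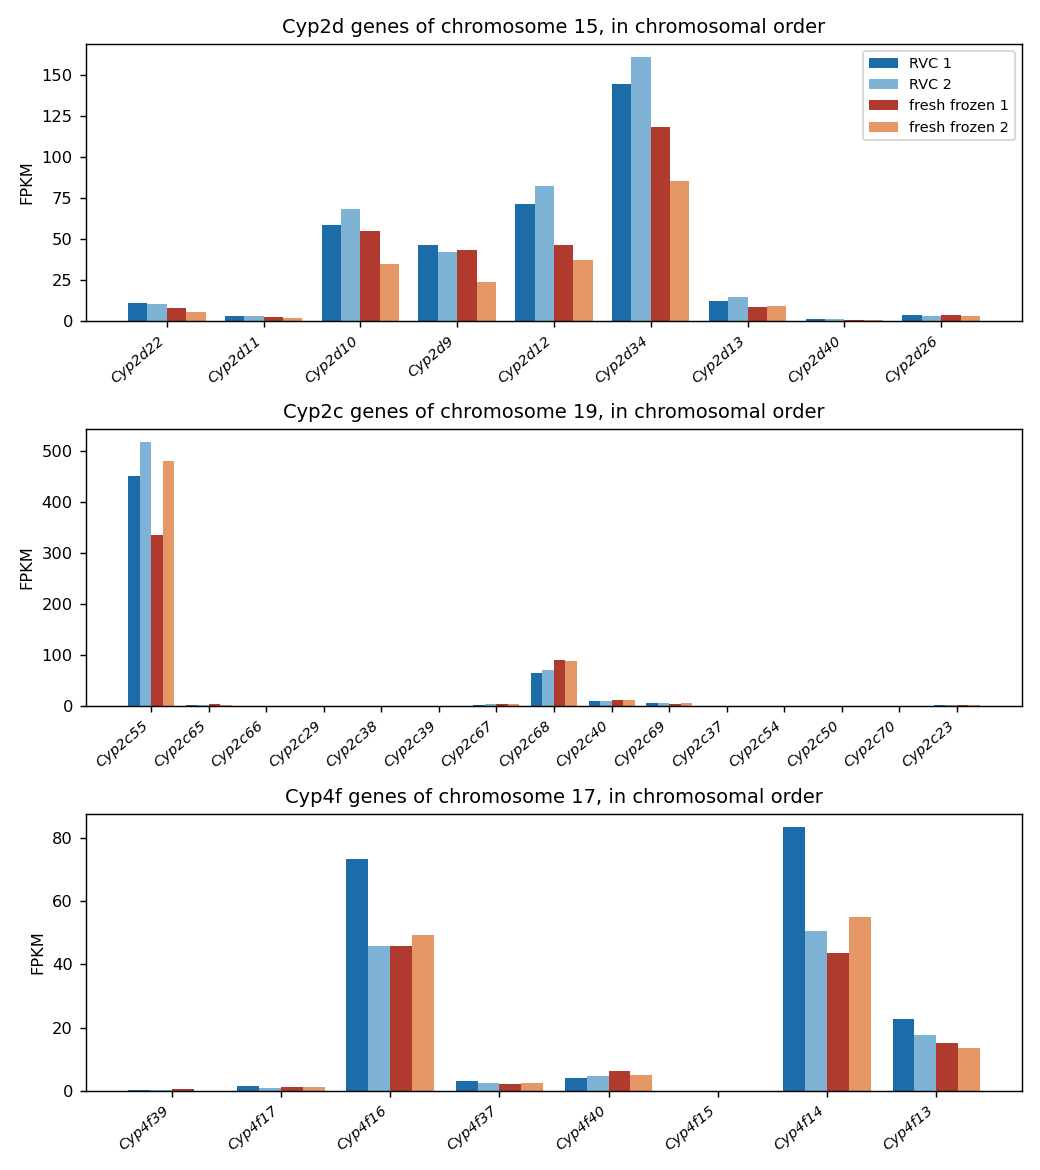
Bars give the FPKM of each gene in each of the 4 libraries, for the Cyp2d row (chromosome 15), the Cyp2c genes (chromosome 19, with Cyp2c23 apart from the row) and the Cyp4f row (chromosome 17), with genes in chromosomal order and each axis starting at 0. Levels are spread over the Cyp2d row with a peak at Cyp2d34, while in the Cyp2c row Cyp2c55 at one edge far exceeds the rest and a second, lower group surrounds Cyp2c68.

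The Cyp3a subfamily, named for the enzymes that clear the largest number of drugs in human liver and gut, was represented by a single gene. Cyp3a13 (ENSMUSG00000029727, chromosome 5, 137891194 to 137919881) measured 95.2, 80.8, 97.1 and 72.6 FPKM, a mean of 86.4 ± 11.8 (SD, n = 4), with overlapping groups. The other 6 genes, Cyp3a11, Cyp3a16, Cyp3a25, Cyp3a44, Cyp3a57 and Cyp3a59, were listed at 0 in all 4 libraries, among them the main liver gene Cyp3a11. Outside the naming rule, Cyp3a41a and Cyp3a41b had means of 0.00195 and 0.00194 FPKM. Cyp3a13 lies apart at one end of the stretch of chromosome 5 that holds the subfamily (137891194 to 146050097), and the next gene, Cyp3a57, starts at 145282089.

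Among subfamilies with a single gene, Cyp2s1 (ENSMUSG00000040703, chromosome 7, 25501900 to 25516338), an enzyme of epithelia that acts on retinoids and prostaglandin precursors, measured 31.9, 32.0, 26.4 and 21.4 FPKM. Cyp2f2 (ENSMUSG00000052974), best known from airway cells where it activates naphthalene, lies in the same stretch of chromosome 7 and measured 7.11, 7.17, 9.96 and 8.62 FPKM. That stretch, between 25501900 and 26858093, holds 13 genes of the Cyp2a, Cyp2b, Cyp2f, Cyp2g, Cyp2s and Cyp2t subfamilies, and only these 2, one at its start and the other near its end, reached 1 FPKM. Cyp2j6 (ENSMUSG00000052914), of a subfamily that makes fatty acid epoxides, measured 5.16, 5.63, 8.44 and 7.10 FPKM. Its neighbour Cyp2j9 lay just below the level with 0.771, 0.879, 0.689 and 0.891 FPKM, and 3 of the other 6 Cyp2j genes were listed at 0 everywhere.

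The sterol enzymes at 1 FPKM or more were Cyp27a1 and Cyp39a1. Cyp27a1 (ENSMUSG00000026170, chromosome 1, 74752733 to 74777051), the mitochondrial sterol hydroxylase that makes oxysterols and starts the alternative route to bile acids, measured 16.0, 14.5, 12.4 and 9.67 FPKM. Cyp39a1 (ENSMUSG00000023963), which acts on an oxysterol, measured 2.63, 4.01, 6.65 and 5.11 FPKM. The first was higher in both RVC libraries and the second in both fresh-frozen libraries. Cyp7b1, the other oxysterol hydroxylase of this route, had a mean of 0.361 FPKM. Cyp20a1, whose substrate is not established, measured 4.74 ± 0.395 FPKM (SD, n = 4). The fatty acid hydroxylases Cyp4v3 and Cyp2u1 measured 3.44 ± 0.654 and 1.70 ± 0.357 FPKM (SD, n = 4). Cyp4b1 measured 1.71, 2.41, 0.624 and 1.21 FPKM and was the one gene of the 31 that fell short of 1 FPKM in a library. The other gene near the level was Cyp2c23, at 1.27, 1.53, 1.06 and 1.20 FPKM.

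The subfamilies with no gene at a mean of 1 FPKM ranged from genes listed at 0 to genes near that level. Cyp7a, Cyp11b, Cyp19a and Cyp24a were listed at 0 in all 4 libraries, and 16 subfamilies summed to a mean below 0.1 FPKM. Bile acid synthesis by the classical route was represented by Cyp7a1, its rate-limiting enzyme, listed at 0, and by Cyp8b1 at a mean of 0.113 FPKM. Steroid hormone synthesis was represented by Cyp11a1 (0.0648), Cyp17a1 (0.0524) and Cyp21a1 (0.0195 FPKM), and by Cyp11b1, Cyp11b2 and the aromatase gene Cyp19a1, all listed at 0. Cyp17a1 was above 0 in RVC 1 alone. Among vitamin D enzymes, the activating Cyp27b1 had a mean of 0.0312 FPKM, the inactivating Cyp24a1 was listed at 0, and the first-step enzyme Cyp2r1, the gene nearest below 1 FPKM, measured 0.486, 0.689, 0.973 and 1.22 FPKM. The retinoic acid hydroxylases Cyp26b1, Cyp26c1 and Cyp26a1 had means of 0.133, 0.0240 and 0.00454 FPKM.

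Low levels were also measured for several inducible enzymes for foreign chemicals. Cyp1a1, the classical target of the aryl hydrocarbon receptor, measured 0.0888, 0.0303, 0.0656 and 0.0240 FPKM, Cyp1a2 was listed at 0 and Cyp1b1 had a mean of 0.0387 FPKM. The 5 Cyp2b genes summed to a mean of 0.120 FPKM, nearly all of it Cyp2b10 (0.111), the target of the receptor CAR. The 4 Cyp2a genes summed to 0.111 FPKM and the 5 Cyp4a genes, fatty acid hydroxylases driven by PPAR alpha in liver, to 0.0209 FPKM. Cyp2w1, known from fetal gut and colon tumours, was above these at 0.977, 0.395, 0.567 and 0.291 FPKM. Cyp2e1, the ethanol-oxidising enzyme, was at 0.697 FPKM in fresh frozen 1 and between 0.0510 and 0.123 FPKM in the other 3 libraries. Of 8 white fat markers 4 were also highest in fresh frozen 1 (Cfd at 1.66, Retn at 0.459, Adipoq at 0.323 and Lep at 0.154 FPKM) and the other 4 were not, among them the most abundant, Fabp4. The list summed to 8.53, 8.64, 10.7 and 6.25 FPKM, and the part of fat tissue in the Cyp2e1 value was not tested. In all, 24 of the 94 genes were listed at 0 in every library, 39 were above 0 in at least 1 library but below a mean of 1 FPKM, and 49 had a mean below 0.1 FPKM. Besides Cyp2r1, Cyp2d40 was the only gene below the mean of 1 FPKM that reached it in a library. With no fragment counts in the files, no upper limit could be set for a gene listed at 0.

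Transcripts of the abundant genes differed in make-up. GENCODE vM39 types were used, and shares are of the mean FPKM of the gene. All FPKM lay in protein-coding transcripts in 12 of the 31 genes, and at least 80% in 26. Cyp2c55, Cyp3a13, Cyp2c68 and Cyp2j6 each had a single listed transcript. Cyp2d34 had 64.8% in its full-length coding transcript, 18.0% in a transcript marked for nonsense-mediated decay and 17.2% in one that retains an intron. Cyp2d12 had 70.1% in coding transcripts, and its full-length form of 1654 bases held 60.1% of the gene. Cyp2d13 had nothing in an ordinary coding transcript: 50.5% lay in a transcript marked for nonsense-mediated decay and 49.5% in one that GENCODE marks as a loss-of-function coding transcript. It was the only one of the 31 genes whose most abundant transcript was not protein coding. Cyp4f14 and Cyp4f16 were divided over several transcripts, the largest, full-length and coding in both, holding 44.7% and 43.1%. In Cyp4f14 a short coding form of 678 bases held 19.5%. Cyp4f16 had 78.7% in coding transcripts, and the rest lay in other types. The full-length Cyp2d34 transcript alone measured 95.3, 102, 79.5 and 53.6 FPKM and that of Cyp2d12 43.3, 49.2, 28.3 and 21.7 FPKM, so the order of the groups was that of the gene sums.

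**Figure D3:**
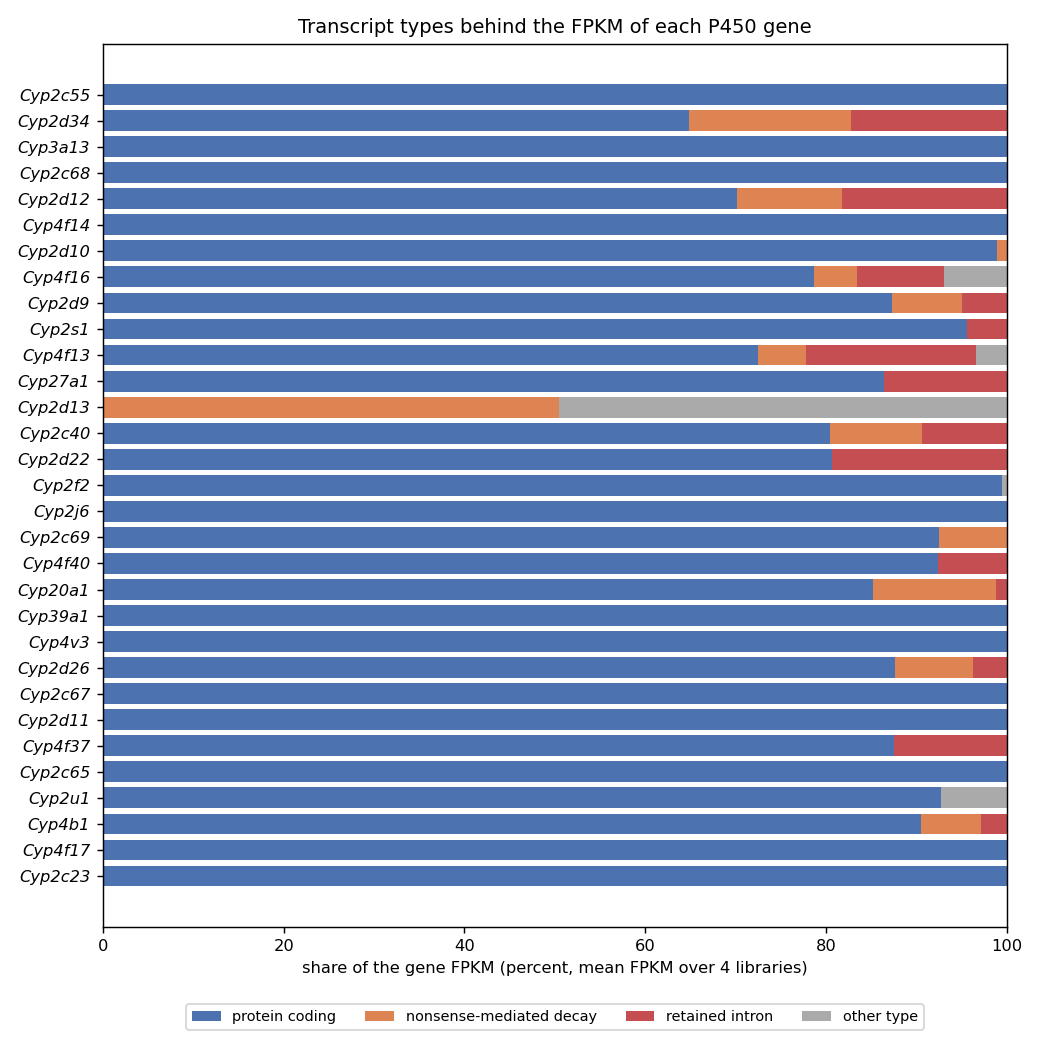
Horizontal bars divide the mean FPKM of each of the 31 genes by GENCODE transcript type, in percent of the gene's FPKM over 4 libraries, with genes ordered by level. Most bars are at least 80% protein coding, while Cyp2d34 (64.8%), Cyp2d12 (70.1%), Cyp4f13 (72.5%) and Cyp4f16 (78.7%) hold less and Cyp2d13 holds none.

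Close copies share sequence, and reads from shared stretches are divided by the authors' software by likelihood. Windows of 100 bases were taken from the most abundant transcript of each gene, so its other transcripts are not covered. A window counted as shared only where it matched letter for letter. Of the 31 genes 15 shared no window with another P450 gene or pseudogene, among them Cyp2c55, Cyp3a13, Cyp4f14, Cyp2s1 and Cyp27a1. More than 5% of windows were shared in 10 genes. The highest shares were in Cyp2c69 (36.3%), Cyp2c40 (28.0%), Cyp2c67 (23.6%) and Cyp2c68 (19.2%), then Cyp2d10 (16.3%) and Cyp2d11 (12.2%). The values of these genes are uncertain, and the share of windows does not measure by how much. In their most abundant transcripts, Cyp2d34 (0.128%), Cyp2d12 (3.69%), Cyp2d13 (0.403%) and Cyp2d22 (0.225%) shared few such windows with any other P450 gene. Any mismatch makes a window unshared, so a low share does not show that reads were assigned to the right copy.

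RVC and fresh-frozen libraries were then compared. The labels state no question for this comparison. Fold changes are RVC over fresh frozen on log2(scaled FPKM + 1), a scale that understates changes of low genes, and were tested with limma over all 13771 genes tested, with Benjamini-Hochberg adjustment. None of the 31 P450 genes passed an adjusted p of 0.05, where 0.0363% of all genes did (0.0145% upward and 0.0218% downward in RVC). An unadjusted p below 0.05 was found for 15 of the 31, or 48.4%, against 18.4% of all genes, with 10 higher in RVC and 5 lower (9.38% and 8.99% of all genes). The 2 groups did not overlap in 21 of the 31, or 67.7%, against 53.2% of all genes, with 13 higher and 8 lower (26.5% and 26.6% of all genes). Both counts of higher genes include Cyp4b1, the 1 gene of the 31 that averaged 1 scaled FPKM or more in only 1 group. The median change of the 31 genes was 0.18 against 0.0066 over all genes, and their median size of change 0.39 against 0.18. No P450 gene reached a change of 1 in size. Neighbouring copies share sequence and position, so the 31 are not 31 independent genes.

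Most Cyp2d genes had positive estimates and most Cyp2c genes negative ones. All 8 Cyp2d genes at 1 FPKM or more were tested, 7 had a positive estimate, 6 had both RVC libraries above both fresh-frozen libraries (26.5% of all genes did), and the median was 0.57. Cyp2d12 had the smallest adjusted p of the family: its scaled levels averaged 76.8 ± 7.62 in the RVC libraries against 41.6 ± 6.13 in the fresh-frozen libraries (SD, n = 2), a log2 fold change of 0.87 (SE 0.14, limma adjusted p = 0.112). For Cyp2d34 scaled levels were 153 ± 11.2 and 102 ± 22.1 (SD, n = 2), a change of 0.60 (SE 0.16, limma adjusted p = 0.154). The changes were 0.62 for Cyp2d22 (limma adjusted p = 0.138), 0.61 for Cyp2d13 (0.129), 0.53 for Cyp2d10 (0.230) and 0.40 for Cyp2d11 (0.251). Cyp2d9 had 0.46 (limma adjusted p = 0.341) and Cyp2d26 was at -0.08. None of the 8 passed the adjusted test.

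The Cyp2d difference rested in part on fresh frozen 2, the library with the lowest level in 6 of the row's 8 genes. Without fresh frozen 2 the median of the 8 genes was 0.31 and 4 of them had an unadjusted p below 0.05, compared with 6 over all libraries. The share of all genes at that p was 18.5% without fresh frozen 2 and 18.4% over all libraries. Without fresh frozen 1 the median was 0.81 with 7 such genes (15.7% of all genes), without RVC 1 it was 0.62 with 5 (9.31%), and without RVC 2 it was 0.51 with 4 (13.2%).

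Of the 7 Cyp2c genes tested 5 had a negative estimate, 4 of them with groups that did not overlap (26.6% of all genes were lower in this way), and the median was -0.22. Cyp2c68 averaged 67.1 ± 3.53 scaled FPKM in the RVC libraries against 88.4 ± 0.263 in the fresh-frozen libraries (SD, n = 2), a log2 fold change of -0.39 (SE 0.10, limma adjusted p = 0.152). Cyp2c65, which measured 1.64, 1.40, 3.02 and 2.38 FPKM, had a change of -0.55 (SE 0.16, limma adjusted p = 0.163). Cyp2c40 and Cyp2c67 had -0.22 and -0.27. Cyp2c55 had 0.27 (SE 0.19, limma adjusted p = 0.467), with groups that overlapped. The estimates of Cyp2c68, Cyp2c40 and Cyp2c67 are not separate observations, since their most abundant transcripts share up to 28.0% of windows with other P450 genes. In the Cyp4f row the median was 0.23, and without RVC 1 it was -0.00036.

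Other genes with an unadjusted p below 0.05 and a change of at least 0.3 in size were spread over subfamilies. Higher in RVC were Cyp2s1 (0.42, limma adjusted p = 0.173), Cyp27a1 (0.45, 0.184), Cyp4f13 (0.47, 0.188) and Cyp4b1 (0.68, 0.179). Lower in RVC were Cyp39a1 (-0.68, limma adjusted p = 0.161), Cyp2j6 (-0.45, 0.169) and Cyp2f2 (-0.33, 0.226). The 3 smallest changes were those of Cyp20a1 (-0.03, limma adjusted p = 0.925), Cyp4f17 (0.06, 0.873) and Cyp3a13 (0.07, 0.841). Within a group, the median size of the difference between the 2 libraries over the 31 genes was 0.17 in RVC and 0.24 in fresh frozen on the same scale.

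**Figure D4:**
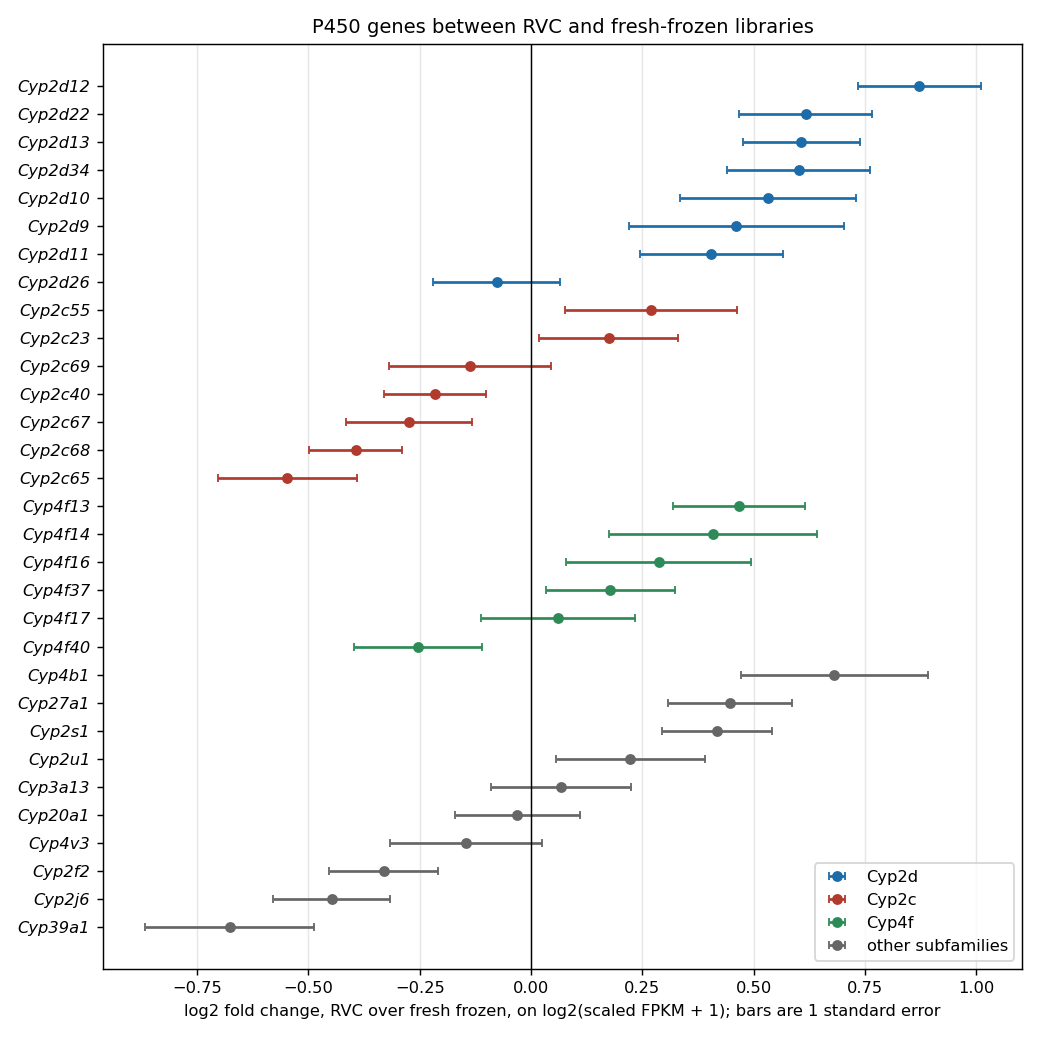
Points give the fitted log2 fold change of each of the 31 P450 genes, RVC over fresh frozen on log2(scaled FPKM + 1), with bars of 1 standard error and colours for subfamily. Of the 8 Cyp2d genes 7 lie to the right of 0, from 0.40 to 0.87, most Cyp2c genes lie to the left, and no gene passed the adjusted test.

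Markers of other cells also differed between the groups. All 9 smooth muscle markers tested were higher in both RVC libraries, with summed levels of 1115 and 1661 FPKM in RVC against 686 and 739 in fresh frozen, as were all 7 endothelial and all 6 plasma cell markers tested, where 26.5% of all genes were. Absorptive colonocyte markers, from the cells that line the surface, summed over the list of 8 to 11083 and 10219.5 FPKM in the RVC libraries against 8998 and 7458 in the fresh-frozen ones, with 4 of 8 higher in both RVC libraries and fresh frozen 2 the lowest, as in the Cyp2d row. Enteroendocrine markers were lower in both RVC libraries in 5 of 6, where 26.6% of all genes were, as were 2 of 5 crypt stem and progenitor markers. Higher in both RVC libraries were 6 of 8 macrophage markers. Only 1 of 8 fibroblast, 1 of 8 goblet cell and 1 of 5 enteric neuron and glia markers were, so other cell types did not all move together. None of these markers passed the adjusted test, and their part in the P450 differences was not tested. In bulk tissue, fewer cells of a type and less RNA per cell cannot be told apart.

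The partners of the P450 enzymes were described from lists of 105 genes, of which 77 were tested. None passed the limma adjusted test, and at an unadjusted p below 0.05 there were 10 higher in RVC and 5 lower, where 9.38% and 8.99% of all genes were, so these counts were near the shares over all genes. Electron donors were abundant: cytochrome b5 (Cyb5a) measured 74.8 ± 5.80 FPKM, P450 reductase (Por) 59.5 ± 12.1 and Cyb5b 50.9 ± 4.34 (SD, n = 4). Por, the donor for all microsomal P450 enzymes, measured 71.5, 62.6, 61.1 and 42.8 FPKM, with fresh frozen 2 the lowest library (0.39, limma adjusted p = 0.279). The electron donor list had 10 of 11 genes at 1 FPKM or more. For haem, the prosthetic group, the first enzyme of synthesis Alas1 measured 46.8 ± 8.38 FPKM, Hmox2 18.3 ± 2.12 and Fech 16.9 ± 2.29 (SD, n = 4), and 12 of the 13 genes reached 1 FPKM.

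Of 24 nuclear receptors and related sensors that control P450 genes, 20 reached 1 FPKM. The highest were Hnf4a at 173 ± 16.3 FPKM, the vitamin D receptor Vdr at 100.4 ± 10.2 and Ppard at 42.9 ± 6.88 (SD, n = 4). Vdr, whose best known target is Cyp24a1, measured 109.7, 104, 102 and 86.0 FPKM while Cyp24a1 was listed at 0. The xenobiotic sensors PXR (Nr1i2), CAR (Nr1i3) and Ahr measured 20.2 ± 2.05, 1.56 ± 0.513 and 2.90 ± 0.290 FPKM (SD, n = 4), beside Cyp3a11 listed at 0, Cyp2b10 at 0.111 and Cyp1a1 at 0.0522 FPKM. The sensors were named for these pairs after their values were seen. Of 6 other targets of the aryl hydrocarbon receptor 4 reached 1 FPKM and the rest did not. The highest were Ugt1a6a at 14.2 ± 2.67 FPKM, Nqo1 at 11.6 ± 2.94 and Tiparp at 6.46 ± 0.689 (SD, n = 4).

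Enzymes that share substrates with the abundant P450 genes were present as well. In the arachidonic acid list, 10 of 17 reached 1 FPKM, led by Hpgd, which inactivates prostaglandins (133 ± 18.4 FPKM), Lta4h, which makes a leukotriene (33.2 ± 2.46), and Ephx2, which hydrolyses P450-made epoxides (14.4 ± 2.80; SD, n = 4). Ptgs1 measured 5.01, 5.60, 3.36 and 3.22 FPKM, higher in both RVC libraries (0.56, limma adjusted p = 0.135). In the retinoid and vitamin D list, Rbp2 measured 88.2, 92.7, 61.4 and 63.8 FPKM (0.53, limma adjusted p = 0.129), S100g 19.8 ± 10.6 and Aldh1a1 16.6 ± 0.803 FPKM (SD, n = 4). Among oxysterol, bile acid and steroid partners Hsd11b2 measured 96.0 ± 11.1 FPKM, Hsd17b2 74.9 ± 5.18 and Hsd3b3 43.9 ± 1.65 (SD, n = 4). Cyb5r1, a b5 reductase, measured 2.59, 3.31, 1.72 and 1.62 FPKM (0.56, limma adjusted p = 0.157). P450 enzymes whose symbols fall outside the naming rule included Cyp51, the demethylase of cholesterol synthesis, at 25.4 ± 3.49 FPKM, Ptgis at 3.17 ± 0.512 and Tbxas1 at 0.890 ± 0.331 (SD, n = 4).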

How the data were processed

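Per the labels, tissue was dissolved in TRIzol and ribosomal RNA was depleted, and KAPA HyperPrep libraries were read as 150-bp pairs on a NextSeq 500. Per the submitters' processing notes and design text, the authors used TopHat 2.1.1 and Cufflinks 2.2.1 with default parameters on GRCm39; the annotation release and a strand setting are not given in the sources used here. Per the file headers, the deposited values are FPKM per transcript with confidence bounds, and coverage, a signal of reads per base. Cufflinks divides reads between overlapping transcripts and near-identical copies by likelihood, so their values are uncertain, and FPKM move with the most abundant RNAs of a library.

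Transcript FPKM were summed for each gene. Relative depth was read from the ratio of coverage to FPKM; fragment counts could not be recovered. For tests, FPKM was scaled by median ratio and analysed as log2(scaled FPKM + 1) in limma 3.58.1 (R 4.3.3; trend, two-sided, 2 against 2 libraries) with Benjamini-Hochberg adjustment. Tested were the 13771 genes whose scaled FPKM averaged 1 or more, with a longest transcript of at least 300 bases and status OK in every library. The method was tested on simulated data with no batch effect and with planted changes larger than any P450 change in the fit reported. That test therefore does not show whether changes of the P450 size would be called. Gene and transcript types, strand and transcript sequences came from GENCODE vM39, positions from the files and promoter windows from GRCm39. Alternatives were other scalings, a pseudocount of 0.1, other filters, the most abundant transcript, no trend, a block on sample number and each library left out. Same-numbered libraries do not pair by any label.

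All P450 genes at a mean of 1 FPKM are named. Values in each library are given for the 12 most abundant, for those with an unadjusted p below 0.05 and a change of at least 0.3, and for the 3 nearest to 1 FPKM on either side. Of each partner list the 3 most abundant genes are named, and over all lists the 3 of smallest p; other genes named were chosen after their values were seen. The members and lists were chosen with earlier results of these data known.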

Additional observations from a re-analysis of the deposited data

How the results depend on the processing

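Depth and 2 libraries a group limit these results. The count of 31 P450 genes at 1 FPKM was 30 when a gene was represented by its most abundant transcript and 31 under the other alternatives tried for it. No P450 gene was called in any fit except that with a replicate block on sample number (0 called in the fit reported, with 15 at an unadjusted p below 0.05). With that block 112 genes and 1 P450 gene, Cyp2d12 (limma adjusted p = 0.0316), were called. Over all genes, 5 were called in limma as reported, against 0 with no filter on low values, 2 at a mean of at least 5 FPKM, 0 with transcripts under 300 bases left out, 2 with the most abundant transcript, 0 with no trend, and 8 to 30 with 1 library left out (30 without RVC 1, 8 without RVC 2, 22 without fresh frozen 1, 27 without fresh frozen 2); in the settings with 0, unadjusted p was below 0.05 for 3531, 2577 and 2461 genes. Deviations of same-numbered libraries were only weakly related (r = -0.13 across all genes tested and -0.077 over the 31 P450 genes). With crossed pairs, an alternative added after seeing the data, 12 genes and 0 P450 genes were called. The median change of the P450 genes was 0.27 with a pseudocount of 0.1, 0.41 over the 19 genes at a mean of at least 5 FPKM, and 0.051 (without RVC 1) to 0.22 with 1 library left out. When a gene was represented by its most abundant transcript, the summed P450 FPKM was 965 and the share of Cyp2c55 46.1%. Among refits of single named genes 235 kept their direction and side of the threshold, and 1, Cyp2d12 under the block, passed it. The cause of these differences was not tested.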

Other observations

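Of 33 P450 pseudogenes by name in the files, 1 reached a mean of 1 FPKM: Cyp2d37-ps measured 1.34, 1.30, 0.988 and 1.04 FPKM in RVC 1, RVC 2, fresh frozen 1 and fresh frozen 2, a mean of 1.17. Cyp2d41-ps followed with a mean of 0.695 FPKM, and Cyp4f41-ps measured 1.65 FPKM in RVC 1 and 0.245 to 0.402 FPKM in the other 3 libraries. RVC 1 is also the library in which Cyp4f14 and Cyp4f16 were highest. Of 8 further genes with P450-like symbols outside the naming rule, Cyp51 alone reached 1 FPKM, and the antisense gene Cyp4x1os had a mean of 0.0412 FPKM.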
